A study of Mus musculus with 42 samples.

Results

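Messenger RNA levels of 10 mouse genes were followed in kidneys that had lost Tsc2, Tfeb or both. Tob2, Slc25a25, Gadd45g, Dusp6 and Nfkbia were chosen because they were lower with rapamycin than with vehicle in control kidneys. Fos, Egr1, Jun, Junb and Ier2 were added as textbook immediate early genes. All 10 are protein coding and were found by gene name in the count and FPKM (fragments mapped to a gene, per length and depth) tables, which hold 54532 genes. The working name of the set, immediate early genes lowered by rapamycin, describes only the first 5, and those only in the control kidneys on which they were chosen. None of the other 5 was lower with rapamycin in control kidneys by the test, and the sets are called the picked genes and the classic genes from here on.

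The RNA came from whole kidneys of C57BL/6 mice, in 42 libraries and 14 groups of 3. In the CaggCreERT2 experiment, tamoxifen given to the lactating mothers induced Cre throughout the body, and kidneys of control, Tsc2 KO, Tfeb KO and Tsc2+Tfeb DKO mice were taken at postnatal day 30. In the KspCre experiment, the cadherin 16 promoter drove Cre in kidney tubule epithelium, so that other kidney cells kept the floxed genes, and the same 4 genotypes were taken untreated at day 50. In the drug experiment, also KspCre and also day 50, control, Tsc2 KO and DKO mice received vehicle or rapamycin at 1 mg/kg, 3 times per week from day 25, 11 injections in all. The KspCre controls lacked Cre. The wild type CaggCreERT2 controls carried Cre and saw tamoxifen according to the study.

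Immediate early genes are transcribed within minutes of a growth factor, calcium or stress signal, without new protein synthesis, through factors that are already bound or waiting in the cell. Fos, Jun and Junb are subunits of the transcription factor AP-1, Egr1 is a zinc finger transcription factor, and Ier2 is a small nuclear protein induced with them. Others restrain the signal that induced them: Dusp6 is the phosphatase that removes activating phosphates from ERK, and Nfkbia encodes IkappaBalpha, which holds NF-kappaB in the cytoplasm. Gadd45g encodes a stress sensor that activates the MAP kinase kinase kinase upstream of p38 and JNK. Tob2 belongs to the BTG/TOB family of antiproliferative proteins that bring the deadenylase complex to mRNA, and Slc25a25 is the calcium-regulated ATP-Mg/phosphate carrier of the inner mitochondrial membrane. Tsc2 is a subunit of the complex that restrains mTORC1, rapamycin inhibits mTORC1, and TFEB is a transcription factor of lysosomal genes that mTORC1 phosphorylates. Loss of Tsc2 removes that restraint, and the DKO lacks TFEB as well.

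Because the transcripts of such genes are short-lived and driven from inducible promoters, the DNA just upstream of the start sites is shown for the members that held one of the searched motifs. RefSeq promoter entries of build GRCm38.p6 were matched by symbol for 8 of the 10 genes, with 10 start sites. Ier2 had no entry, and Egr1 was left out of the search. The windows of 250 bases were read on both strands for the CRE (TGACGTCA), the TGACG core that this site contains in both orientations, the AP-1 site TGANTCA, the TATA box as TATAAA, the EGR site GCGGGGGCG, and the CArG box and NF-kappaB site by name. The following stretches are the last 150 bases before the start, written 5′ to 3′ on the gene's own strand, with the motif in capitals: for Slc25a25 the third of its start sites (chr2:32424067-32424216, minus strand), for Gadd45g chr13:51846525-51846674 (plus strand), for Nfkbia chr12:55492648-55492797 (minus strand), for Fos chr12:85473740-85473889 (plus strand) and for Junb chr8:84978749-84978898 (minus strand).
Slc25a25: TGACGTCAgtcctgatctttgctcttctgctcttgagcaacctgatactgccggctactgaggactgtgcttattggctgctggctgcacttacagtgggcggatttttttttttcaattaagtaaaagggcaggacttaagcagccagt
Gadd45g: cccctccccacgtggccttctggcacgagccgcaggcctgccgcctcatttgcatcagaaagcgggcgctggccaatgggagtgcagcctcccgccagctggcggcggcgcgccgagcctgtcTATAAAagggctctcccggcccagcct
Nfkbia: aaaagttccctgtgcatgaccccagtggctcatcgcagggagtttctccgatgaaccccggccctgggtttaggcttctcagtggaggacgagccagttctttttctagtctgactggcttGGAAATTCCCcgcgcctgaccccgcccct
Fos: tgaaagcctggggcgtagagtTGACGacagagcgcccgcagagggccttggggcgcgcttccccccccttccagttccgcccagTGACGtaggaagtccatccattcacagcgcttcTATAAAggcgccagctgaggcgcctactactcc
Junb: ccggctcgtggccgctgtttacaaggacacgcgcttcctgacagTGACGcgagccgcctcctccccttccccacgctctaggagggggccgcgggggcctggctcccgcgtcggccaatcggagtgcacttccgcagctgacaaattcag

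The full CRE was found 150 to 143 bases before the third Slc25a25 start and in 1.55% of all 32851 promoter windows. Its TGACG core occurred in Fos, 129 to 125 and 66 to 62 bases before the start, and in Junb, 106 to 102 bases before it. That core is common, with a match in 17.8% of windows. TATAAA lay 27 to 22 bases before the Gadd45g start and 33 to 28 bases before that of Fos, and 12.4% of windows held it. The capitals in Nfkbia are an NF-kappaB site on the opposite strand, 29 to 20 bases before the start. Fos had another such site 214 to 205 bases upstream, outside the printed stretch, and 3.9% of windows held one. No window of the 8 genes searched held the CArG box (1.47% of windows), the AP-1 site (6.75%) or the EGR site (2.57%). Tob2, Dusp6, Jun and the other Slc25a25 starts held none of the 7 motifs. Nothing is known here of these motifs in Egr1 and Ier2, which were not read. The third Slc25a25 start lies inside the annotated gene, which spans chr2:32414487-32451445 on the minus strand of mm10, and the other stretches lie at or beside the annotated start of their gene. A match is a string of letters in the DNA and was not measured as a binding site here.

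The libraries held 14926050 to 22807605 reads on genes. Between pairs of replicates of a group, the squared difference in counts was 16.4 to 87.5 times that of sampling alone, as a mean over genes. Tsc2 averaged 9.35 FPKM in vehicle-treated controls, 4.06 in Tsc2 KO and 6.08 in DKO kidneys of the drug experiment, and Tfeb averaged 2.8 FPKM in vehicle-treated DKO against 5.88 in Tsc2 KO kidneys. Several libraries stood apart before any of the 10 genes was considered. The summed level of 7 adrenal cortex markers was 1430 and 51.64 FPKM in vehicle-treated Tsc2 KO libraries 1 and 2 and 309.8 and 4310 in vehicle-treated DKO libraries 1 and 2, against 1.148 to 2.124 in the other 14 libraries of that experiment. Calls of the 10 genes that rest on these 4 libraries are given with and without them. Leaving them out leaves 1 vehicle library each in Tsc2 KO and DKO kidneys, which the fit assumes to vary like the other groups, so the p-values of those fits have no replicate check of the vehicle level. In untreated KspCre kidneys the drop of Tfeb in whole tissue was small in Tfeb KO, at 4.32 to 5.25 FPKM against 5.85 to 6.24 in control. Tsc2 KO kidneys there had 3.66 to 6.12 FPKM, and DKO kidneys 2.65 to 4.09. In the CaggCreERT2 experiment the names of 4 of 12 libraries differed between the count and FPKM tables, so that 1 Tfeb KO and 1 DKO library change places. The FPKM names were used. Under them Tsc2 was 9.05 to 10.2 FPKM in the Tfeb KO and 4.82 to 5.64 in the DKO libraries, whereas the count table names put 1 library of each of these ranges in the other genotype. Xist exceeded the Y-linked genes in 0 of 3 control, 2 of 3 Tsc2 KO, 3 of 3 Tfeb KO and 1 of 3 DKO libraries there, and in all libraries of both KspCre experiments.

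The first comparison asked how rapamycin changed these genes where Tsc2 was intact. A gene was called when its edgeR adjusted p, over all genes tested, was at most 0.05 and its mean reached 5 FPKM in a compared group. By this rule the picked genes were all 5 genes called lower in control kidneys, 0.0664% of the 7535 that reached 5 FPKM, of 17027 tested, and 0% were called higher. DESeq2 on the same counts called 33 genes lower and 16 higher. They were chosen on this contrast, so their values describe the choice and are not tested. The largest drop was that of Gadd45g, which read 150, 143 and 148 FPKM in the 3 vehicle libraries and 30.3, 30.9 and 33.6 with rapamycin. Slc25a25 read 33.5, 26.5 and 21.5 FPKM with vehicle and 7.46, 6.07 and 8.31 with rapamycin. For Tob2 the vehicle levels were 25.7, 27.1 and 21.3 FPKM and the rapamycin levels 8.2, 12.3 and 10.3. For each of these genes every rapamycin library lay below every vehicle library, and the vehicle group mean was the highest of all 14 groups of the series for Tob2, Slc25a25, Gadd45g and Dusp6, although the 3 experiments were normalized separately. Dusp6 stood at 27.3, 34.6 and 32.2 FPKM with vehicle and at 15.3, 13.3 and 11.5 with rapamycin. Nfkbia had the smallest drop, from 29.1, 38.7 and 30.5 FPKM to 16.8, 18.8 and 19.1.

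On the log2 scale the differences were -2.21 (SE 0.25) for Gadd45g, -1.90 (SE 0.30) for Slc25a25, -1.27 (SE 0.20) for Tob2, -1.23 (SE 0.15) for Dusp6 and -0.84 (SE 0.14) for Nfkbia. The adjusted p used in the choice ran from 0.00252 for Gadd45g and Dusp6 through 0.0357 for Tob2 and Slc25a25 to 0.0407 for Nfkbia, just inside the threshold. Just outside it were the transporter Slco1a6 at -1.03 with 0.11 and Klf10, a transcription factor gene that is itself an early response gene, at -1.43 with 0.162. Markers of collecting duct also differed between these groups, with sums of 310.5 to 378.3 FPKM with vehicle and 600.1 to 835.8 with rapamycin. The adipose sum was 209.6, 195 and 0.2944 FPKM in the vehicle libraries and 11.79, 11.66 and 172.5 in the rapamycin libraries. The part of these transcripts in the differences was not tested. In whole kidney, fewer cells of a type and less RNA per cell cannot be told apart.

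**Figure D1:**
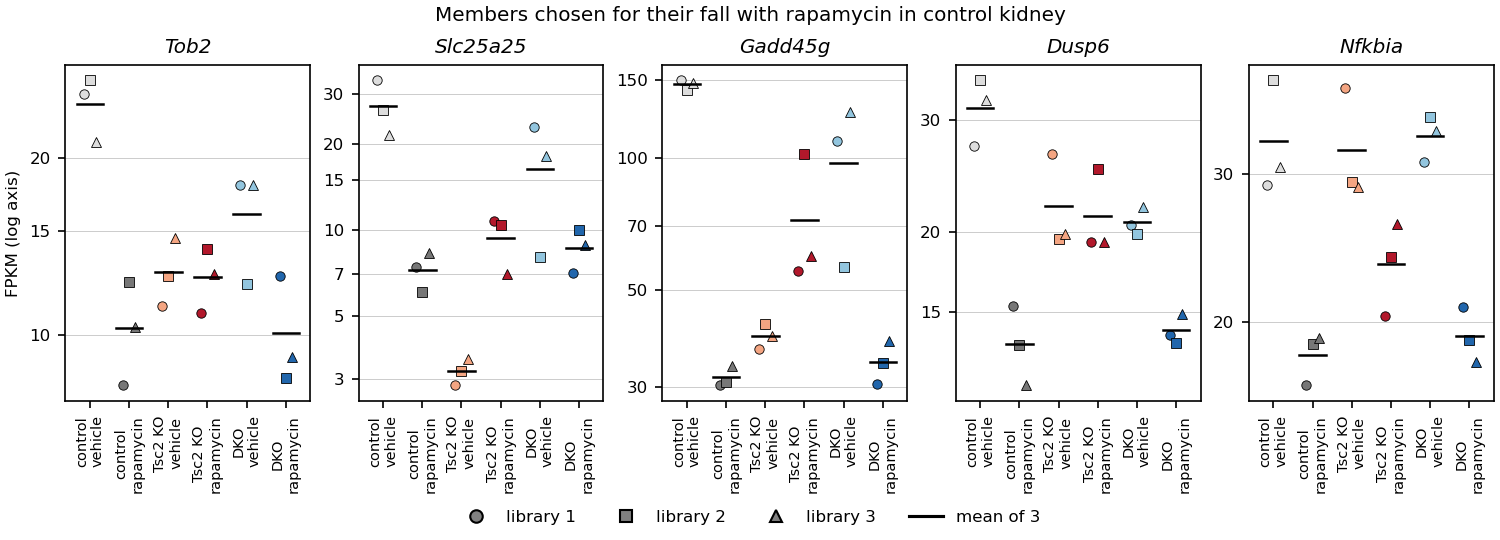
FPKM (log axis) of the 5 picked genes in each of the 18 libraries of the drug experiment, with points for libraries and a bar for the mean of 3. Gadd45g falls from 143 to 150 FPKM in vehicle-treated controls to 30.3 to 33.6 with rapamycin, and in Tsc2 KO kidneys it is instead higher with rapamycin.

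In Tsc2 KO kidneys the picked genes did not move together with rapamycin. Slc25a25 and Gadd45g rose, Nfkbia fell, and Tob2 and Dusp6 were not called. Slc25a25 was 2.86, 3.21 and 3.53 FPKM with vehicle and 10.8, 10.4 and 7.02 with rapamycin, a log2 fold change of 1.56 (SE 0.30, adjusted p = 0.000912). Every rapamycin library lay above every vehicle library. Gadd45g was 36.7, 41.9 and 39.2 FPKM with vehicle and 55.2, 102 and 59.6 with rapamycin, a change of 0.88 (SE 0.25, adjusted p = 0.013). These groups did not overlap either, but rapamycin library 2 was far above the others, and without it the change was 0.55 with an adjusted p of 0.0929. Among the inhibitors of signalling, Nfkbia was 37.9, 29.3 and 28.9 FPKM with vehicle and 20.3, 23.9 and 26.1 with rapamycin, a change of -0.45 (SE 0.13, adjusted p = 0.0197). The groups did not overlap, yet without vehicle library 1 the change was -0.31 with an adjusted p of 0.108, and without rapamycin library 1 it was -0.35 with 0.0857. Dusp6, at 19.5 to 26.5 FPKM with vehicle and 19.3 to 25.1 with rapamycin, changed by -0.05 (SE 0.14), and Tob2, at 11.2 to 14.6 and 10.9 to 14 FPKM, by -0.03 (SE 0.19). Both pairs of groups overlapped almost completely.

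Of the 10 genes, 3 were called higher and 1 lower in Tsc2 KO kidneys, where 21.2% of the 7997 genes that reached 5 FPKM were called higher and 17.3% lower. Proximal tubule marker sums moved with this comparison, from 458 to 719.3 FPKM with vehicle to 1647 to 1959 with rapamycin, and macrophage marker sums were 314.2 to 721.7 and 259.3 to 396.9 FPKM. Their part in the differences was not tested. Without the 4 libraries with adrenal transcripts, Slc25a25 had 1.42 (adjusted p = 0.0115). Gadd45g had 0.89 (adjusted p = 0.0613) and Nfkbia -0.30 (adjusted p = 0.382) in that fit. The vehicle library without adrenal transcripts had 3.53 FPKM of Slc25a25 and 39.2 of Gadd45g, close to the other two.

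In DKO kidneys all 5 picked genes had lower means with rapamycin, and Gadd45g, Nfkbia and Dusp6 were called lower. Gadd45g was 109, 56.5 and 127 FPKM with vehicle and 30.5, 34 and 38.3 with rapamycin, a change of -1.51 (SE 0.25, adjusted p = 0.00258). Nfkbia was 31.0, 35.0 and 33.7 FPKM with vehicle and 20.8, 19.0 and 17.9 with rapamycin, a change of -0.79 (SE 0.13, adjusted p = 0.00359). Dusp6 was 20.5, 19.9 and 21.9 FPKM with vehicle and 13.8, 13.4 and 14.9 with rapamycin, a change of -0.57 (SE 0.14, adjusted p = 0.033). None of these groups overlapped. The call of Dusp6 was the weakest of the 3, since it was lost when any 1 of the 6 libraries was left out, with adjusted p from 0.0503 to 0.136. Slc25a25 was 23.0, 8.09 and 18.2 FPKM with vehicle and 7.07, 9.99 and 8.86 with rapamycin, and its change of -0.93 (SE 0.29) had an adjusted p of 0.0705. Vehicle library 2, which had the most adrenal transcripts, fell among the rapamycin libraries, and without it the change was -1.26 with an adjusted p of 0.00304. Without any 1 of the other 5 libraries it was not called, and without vehicle library 1 it was -0.61 (adjusted p = 0.28). Tob2 was 18, 12.2 and 18 FPKM with vehicle and 12.6, 8.45 and 9.15 with rapamycin, a change of -0.67 (SE 0.19, adjusted p = 0.0515), and was called without the same library (-0.84, adjusted p = 0.0204) or without rapamycin library 1 (-0.87, adjusted p = 0.0328). Without any 1 of the other 4 libraries it was not, at -0.61 to -0.57 with adjusted p up to 0.216. Without all 4 adrenal libraries neither gene was called, Slc25a25 at -1.07 (adjusted p = 0.108) and Tob2 at -0.83 (adjusted p = 0.187).

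Counted over the 10 genes, 3 were called lower and 0 higher in DKO kidneys, where 2.73% of the 7723 genes that reached 5 FPKM were called higher and 4.70% lower. At an unadjusted p under 0.05, 3 of the 10 were higher (Egr1, Ier2 and Fos) and 5 were lower, and DESeq2 called 1 higher (Ier2) and 5 lower. In the fit that leaves out the 4 adrenal libraries Gadd45g had -1.88 (adjusted p = 0.00279), Nfkbia -0.81 (adjusted p = 0.0781) and Dusp6 -0.64 (adjusted p = 0.203). Proximal tubule marker sums were 1067 to 1834 FPKM with vehicle and 1897 to 1957 with rapamycin, and macrophage sums were 221.1 to 411.4 and 131.2 to 202.6 FPKM.

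The difference between both genotypes was tested directly. The rapamycin effect in Tsc2 KO exceeded that in DKO kidneys by 2.49 on the log2 scale for Slc25a25 (SE 0.41, adjusted p = 0.00224) and by 2.39 for Gadd45g (SE 0.35, adjusted p = 0.00088). These 2 of the 10 genes were called higher and 0 lower, beside 8.11% and 2.93% of the 8254 genes that reached 5 FPKM. Neither at an unadjusted p under 0.05 nor with DESeq2 was any of the 10 lower (0 in both). Leaving out any 1 library kept both calls, with differences of 2.17 to 2.80 for Slc25a25 and 2.06 to 2.65 for Gadd45g. Without the 4 adrenal libraries, with 1 vehicle library left in each genotype, the differences were 2.49 and 2.77. Tob2 at 0.64 (SE 0.27, adjusted p = 0.173), Dusp6 at 0.52 (SE 0.20, adjusted p = 0.144) and Nfkbia at 0.34 (SE 0.19, adjusted p = 0.321) did not pass.

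**Figure D2:**
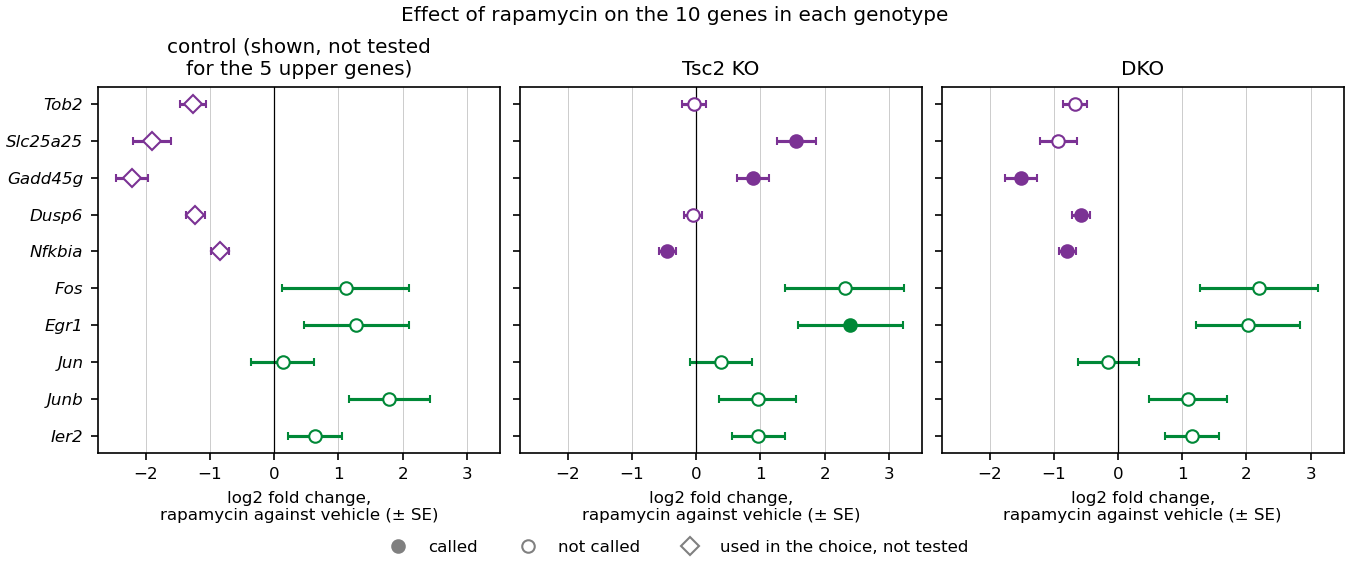
Log2 fold change with rapamycin, with its standard error, for the 10 genes in control, Tsc2 KO and DKO kidneys (3 libraries against 3 each). Filled points were called, open circles were not, and open diamonds mark the picked genes in control kidneys, which were chosen there and not tested. Gadd45g lies at -2.21, 0.88 and -1.51 in the 3 panels, and Slc25a25 at -1.90, 1.56 and -0.93.

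The classic genes were not chosen on a contrast, and no test set them against the picked genes. In control kidneys none was called lower or higher with rapamycin, and 1 of the 5, Junb, was higher at an unadjusted p under 0.05, while 0 were lower. DESeq2 called 0 in either direction. Junb was 6.77, 2.96 and 6.03 FPKM with vehicle and 33.0, 10.1 and 11.5 with rapamycin, a change of 1.79 (SE 0.63, adjusted p = 0.379). Although these groups did not overlap, rapamycin library 1 was far above the others. The same library was the highest in all 5 classic genes. Egr1 was 2.0, 2.88 and 2.89 FPKM with vehicle and 14.6, 1.85 and 2.4 with rapamycin, and Fos was 0.558, 1.71 and 0.891 against 5.61, 0.602 and 0.674. Jun was 16.2, 14.2 and 15 FPKM against 31.3, 9.16 and 9.36. The other rapamycin libraries were within the vehicle range for Fos, below it for Jun, and below it (library 2) or within it (library 3) for Egr1. Without that library the changes were -0.29 for Egr1, -0.72 for Fos and -0.71 for Jun, against 1.28 (SE 0.82), 1.11 (SE 0.99) and 0.13 (SE 0.49) with it, and their adjusted p exceeded 0.05 either way. Ier2, at 8.79 to 11.1 FPKM with vehicle and 23.9, 9.53 and 13.1 with rapamycin, changed by 0.64 (SE 0.42, adjusted p = 0.552).

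In Tsc2 KO kidneys Egr1 was the only classic gene called, at 2.40 (SE 0.82, adjusted p = 0.0365). With replicate number as a block it was not called. It was 5.94, 6.21 and 5.65 FPKM with vehicle and 45.8, 2.12 and 46.2 with rapamycin, so that library 2 lay below all vehicle libraries and the others far above them. Fos was 3.27, 3.9 and 3.0 FPKM with vehicle and 24.2, 0.739 and 25.4 with rapamycin, a change of 2.31 (SE 0.92, adjusted p = 0.0696). Junb was 19.4, 22.4 and 19.4 FPKM against 50.8, 5.49 and 63.1, and Ier2 was 17.2, 15.7 and 14.5 FPKM against 36.8, 9.31 and 46.7. In every classic gene rapamycin library 2 was the lowest of the 6 libraries, Jun included at 20.0 FPKM beside 74.6 and 65.2, and the groups therefore overlapped. The call of Egr1 was lost when any of the other 5 libraries was left out, with adjusted p up to 0.11, and without the 4 adrenal libraries (2.48, adjusted p = 0.325). Without rapamycin library 2, by contrast, Fos had 2.87 (adjusted p = 0.00946), Ier2 1.41 (adjusted p = 0.00276) and Junb 1.48 (adjusted p = 0.0213). Library 2 was also the library with the highest Gadd45g level of its group, 102 FPKM.

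In DKO kidneys no classic gene was called with rapamycin, but 4 of the 5 had higher means. Fos was 3.83, 1.15 and 2.96 FPKM with vehicle and 14.9, 6.44 and 15.1 with rapamycin, a change of 2.20 (SE 0.92, adjusted p = 0.179). Egr1 was 5.61, 4.22 and 5.07 FPKM against 26.9, 10.7 and 22.8, a change of 2.02 (SE 0.81, adjusted p = 0.16). Ier2 was 13.2, 12.3 and 11.8 FPKM against 36.5, 20.0 and 26.1, and Junb was 18.5, 15.6 and 11.9 FPKM against 44.1, 22.1 and 31.5. In all 4 genes every rapamycin library lay above every vehicle library. Jun, at 26.2 to 40.9 FPKM with vehicle and 16.9 to 42.9 with rapamycin, overlapped and changed by -0.15 (SE 0.48).

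Averaged over both knockout genotypes, the rapamycin effect was positive for Egr1 at 2.21 (SE 0.58, adjusted p = 0.00841), for Fos at 2.25 (SE 0.65, adjusted p = 0.0152) and for Ier2 at 1.06 (SE 0.29, adjusted p = 0.0121). It was negative for Nfkbia at -0.62 (SE 0.10, adjusted p = 0.000168) and for Dusp6 at -0.31 (SE 0.10, adjusted p = 0.0316). Thus 3 of the 10 genes were called higher and 2 lower, beside 19.6% and 18.1% of the 8254 genes that reached 5 FPKM. The calls of Egr1, Fos and Ier2 held when any 1 library was left out, with adjusted p up to 0.0216, 0.0372 and 0.039. Without the 4 adrenal libraries the effects were similar in size, at 2.24, 2.26 and 1.17, but their adjusted p were 0.186, 0.215 and 0.16. Nfkbia had -0.55 (adjusted p = 0.0187) in that fit, and Dusp6 was not called, at -0.27 (adjusted p = 0.249). Dusp6 also lost its call, with adjusted p up to 0.0889, without Tsc2 KO vehicle library 1, rapamycin library 1 or 3, or without DKO vehicle library 1 or 3 or rapamycin library 1 or 2. The rapamycin effects on the classic genes in Tsc2 KO and in DKO kidneys differed by 0.54 (SE 0.68) or less in size, and none of these differences was called.

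**Figure D3:**
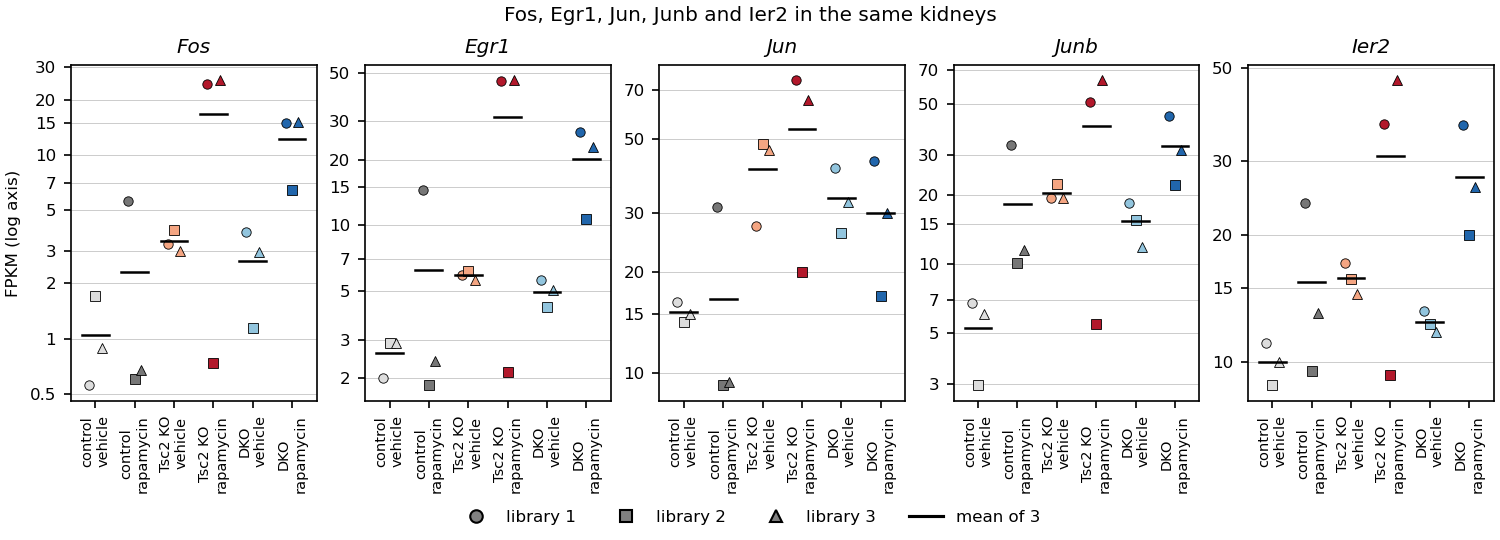
FPKM (log axis) of the 5 classic genes in the 18 libraries of the drug experiment, points for libraries and a bar for the mean of 3. With rapamycin, Tsc2 KO library 2 lies below the vehicle libraries (Egr1 2.12 FPKM against 5.65 to 6.21), and control library 1 above the others of its group (Egr1 14.6 FPKM against 1.85 and 2.4).

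Within the 18 libraries the classic genes kept close company. Pearson's r between pairs of them was 0.70 to 0.98 over log2 CPM (median 0.87 over 10 pairs), and 0.84 to 0.97 once each group's mean was removed. Pairs of picked genes had r of 0.18 to 0.87, but only -0.43 to 0.69 within groups (median 0.25, beside 0.73 before the group means were removed). The groups include the control groups on which these genes were chosen. The 25 pairs across both sets had r of -0.68 to 0.08. The pairs are read from the same libraries, and these values are descriptions. The genes outside the set whose log2 CPM most resembled the mean of the classic genes were Btg2 (r = 0.943), a BTG/TOB family gene, and Cyr61 (r = 0.892), a matricellular protein gene, followed by 2310030G06Rik, Nat6 and Zfp36, an mRNA-destabilizing protein gene, at 0.811, 0.779 and 0.759. Closest to the mean of the picked genes was Txnip (r = 0.849), the thioredoxin-interacting protein gene. Ptpra, Usp8, Timm44 and Errfi1, a feedback inhibitor of the EGF receptor, followed at 0.835, 0.833, 0.817 and 0.817. Klf10 (0.816) and the mitochondrial ribosomal RNA genes mt-Rnr1 (0.811) and mt-Rnr2 (0.803) came next. The part of RNA or library quality in these values was not tested.

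**Figure D4:**
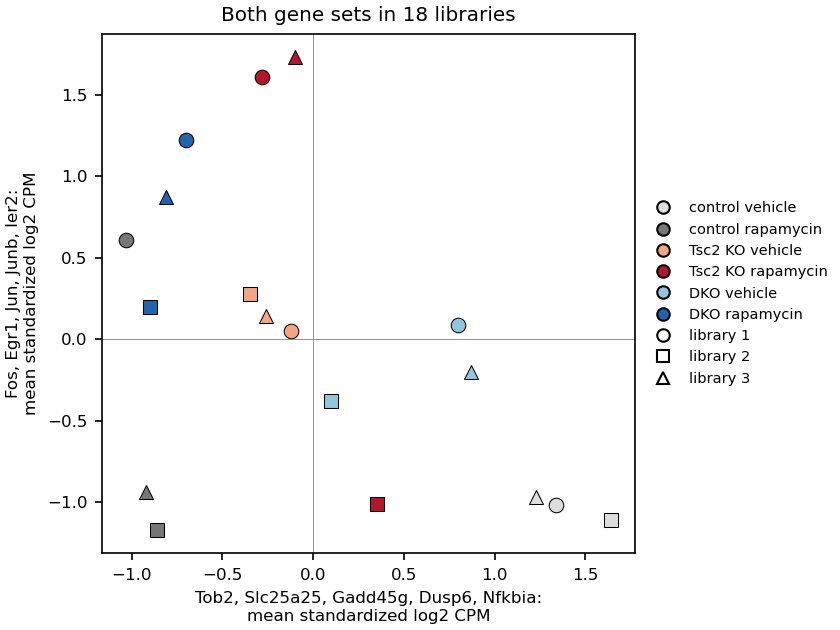
Mean standardized log2 CPM of the picked genes (x axis) against that of the classic genes (y axis) in the 18 libraries of the drug experiment, coloured by group and shaped by library. Vehicle-treated controls lie at 1.23 to 1.64 on the picked axis and -1.11 to -0.97 on the classic axis, and with rapamycin Tsc2 KO library 2 lies at -1.01 on the classic axis where its group mates lie at 1.61 and 1.73.

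The genotypes were next compared without the drug. Vehicle-treated Tsc2 KO kidneys share their control libraries with the contrast that chose the picked genes, so those 5 are given here as values: Slc25a25 differed from control by -3.08, Gadd45g by -1.90, Tob2 by -0.95, Dusp6 by -0.51 and Nfkbia by -0.03 on the log2 scale. Of the 5 classic genes, 2 were called higher and 0 lower, beside 23.8% and 24.6% of the 8098 genes that reached 5 FPKM. At an unadjusted p under 0.05 and with DESeq2, 0 of the classic genes were lower. Junb was 19.4 to 22.4 FPKM in Tsc2 KO kidneys and 2.96 to 6.77 in controls, a difference of 1.96 (SE 0.63, adjusted p = 0.0224). Jun was 27.4, 48.2 and 46.1 FPKM against 14.2 to 16.2, a difference of 1.43 (SE 0.50, adjusted p = 0.0316). For both genes every Tsc2 KO library lay above every control. Proximal tubule marker sums were 458 to 719.3 FPKM in Tsc2 KO and 1791 to 2112 in control kidneys, and macrophage sums 314.2 to 721.7 and 138.4 to 154, and their part in the differences was not tested. The call of Junb was lost without control library 2 or 3 or Tsc2 KO library 2, and that of Jun without any 1 of the 6 libraries but Tsc2 KO library 1, with adjusted p up to 0.0894 and 0.0865. Without the 4 adrenal libraries neither was called, at 1.87 (adjusted p = 0.174) and 1.60 (adjusted p = 0.13). Fos (1.69), Egr1 (1.2) and Ier2 (0.66) were not called.

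Loss of Tfeb on top of Tsc2 went with higher Slc25a25 and Gadd45g in vehicle-treated kidneys. Slc25a25 was 23.0, 8.09 and 18.2 FPKM in DKO and 2.86 to 3.53 in Tsc2 KO kidneys, a difference of 2.36 (SE 0.30, adjusted p = 5.80e-05). Gadd45g was 109, 56.5 and 127 FPKM against 36.7 to 41.9, a difference of 1.31 (SE 0.25, adjusted p = 0.00127). These 2 of the 10 genes were called higher and 0 lower, beside 16.9% and 12.6% of the 7950 genes that reached 5 FPKM. No gene was lower at an unadjusted p under 0.05 (0) or with DESeq2 (0). The groups of both genes did not overlap, and between the single library without adrenal transcripts in each genotype the differences were 2.37 and 1.69. Proximal tubule marker sums moved with this comparison too, at 458 to 719.3 FPKM in Tsc2 KO and 1067 to 1834 in DKO kidneys, and macrophage sums were 314.2 to 721.7 and 221.1 to 411.4. Their part was not tested. The same vehicle libraries enter the rapamycin effects above. Under rapamycin none of the 10 genes was called between DKO and Tsc2 KO kidneys, where 0.397% of the 7566 genes that reached 5 FPKM were called in either direction. At an unadjusted p under 0.05, 3 were lower in DKO (Gadd45g, Dusp6 and Nfkbia) and 0 higher, and DESeq2 called the first 2 lower and 0 higher. Gadd45g differed by -1.08 (SE 0.25, adjusted p = 0.0852) and Dusp6 by -0.60 (SE 0.15, adjusted p = 0.103).

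The untreated kidneys did not enter the choice of the picked genes. In the CaggCreERT2 experiment Slc25a25 was again lowest where Tsc2 alone was lost. It was 13.8, 8.67 and 7.91 FPKM in controls, 2.07, 2.12 and 2.37 in Tsc2 KO, 9.1, 5.77 and 5.01 in Tfeb KO and 4.32, 7.61 and 5.99 in DKO kidneys. The Tsc2 KO libraries lay below all others and close together. Tsc2 KO differed from control by -2.15 (SE 0.27, adjusted p = 0.000123), and DKO from Tsc2 KO by 1.43 (SE 0.26, adjusted p = 0.007). Both calls held with any 1 library left out, with adjusted p up to 0.000991 and 0.0355. With Xist as a covariate the differences were -2.07 (adjusted p = 0.00235) and 1.39 (adjusted p = 0.0191), and under the library names of the count table -2.15 (adjusted p = 0.00222) and 1.48 (adjusted p = 0.0137). Proximal tubule marker sums were 1976 to 2209 FPKM in control, 760.8 to 1309 in Tsc2 KO and 1536 to 1707 in DKO kidneys, and macrophage sums 180.9 to 216.3, 378.9 to 659.8 and 410.7 to 876.1. Their part in the differences was not tested.

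Dusp6 moved the other way in these kidneys. It was 12.3, 10.8 and 15.1 FPKM in controls and 21.6, 35.1 and 16.4 in Tsc2 KO kidneys, a difference of 1.00 (SE 0.23, adjusted p = 0.00674), with no overlap. Its values in Tfeb KO, 12.3 to 16.8 FPKM, were near those of control, and in DKO kidneys, 18.7 to 20.6 FPKM, above them (0.67, SE 0.23, adjusted p = 0.09). The call against control held with Xist as a covariate (1.30, adjusted p = 0.00331) and under the count table names (1.00, adjusted p = 0.0273). Thus 1 of the 10 genes was called higher and 1 lower, beside 23.0% and 15.5% of the 8090 genes that reached 5 FPKM. Nfkbia, at 31.0, 44.9 and 31.4 FPKM, was higher in DKO than in control kidneys, at 18.1 to 21.1 (0.90, SE 0.19, adjusted p = 0.00931), and than in Tsc2 KO kidneys, at 17.5 to 28.7 (0.67, SE 0.19, adjusted p = 0.0424). Jun, at 36.4 to 44.0 FPKM in DKO and 15.2 to 31.0 in control kidneys, differed by 0.98 (SE 0.26, adjusted p = 0.0296). Under the count table names, whose DKO group holds 1 library with the Tsc2 level of Tfeb KO kidneys, these 3 calls were lost. Nfkbia then had 0.77 (adjusted p = 0.426) against control and 0.54 (adjusted p = 0.174) against Tsc2 KO. Jun had 0.74 (adjusted p = 0.585) against control. With Xist as a covariate, Nfkbia lost its call against Tsc2 KO (0.52, adjusted p = 0.0704), and Dusp6 gained one in DKO against control (0.85, adjusted p = 0.0318). With 1 library left out, the call of Nfkbia against control was lost without control library 1 (0.83, adjusted p = 0.0516), and that against Tsc2 KO without any of 5 libraries, all but Tsc2 KO library 2, with adjusted p up to 0.175. That of Jun was lost without control library 2 or 3 or any DKO library, with adjusted p up to 0.124. The adipose marker Ucp1 was also called higher in DKO, by 4.72 against control and 4.42 against Tsc2 KO kidneys. The other adipose markers were not called. In Tfeb KO against control the adrenal markers Hsd3b1 and Star were at 8.09 and 3.92, not called. The part of these transcripts in the differences was not tested.

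Between DKO and Tsc2 KO, 2 of the 10 genes were called higher and 0 lower, beside 6.91% and 7.56% of the 7906 genes that reached 5 FPKM, and 0 were lower at an unadjusted p under 0.05 or with DESeq2. Against control, 2 were called higher and 0 lower, beside 10.2% and 4.73% of the 7950 genes that reached 5 FPKM, while 6 were higher and 1, Slc25a25, lower at an unadjusted p under 0.05, and DESeq2 called 4 higher and 1 lower. Loss of Tfeb alone gave no call among the 10 genes, where 0.0256% of the 7803 genes that reached 5 FPKM were called in either direction. At an unadjusted p under 0.05, 1 was higher (Gadd45g, 44.5 to 59.6 FPKM against 23.0 to 38.5 in controls) and 1 lower (Slc25a25), with adjusted p of 0.385 and 0.589, and DESeq2 called 0.

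In untreated KspCre kidneys a single control library shaped the picture. Control library 1 had 29.3 FPKM of Slc25a25 beside 8.22 and 5.37 in the other controls, 34 of Tob2 beside 12 and 7.32, and 140 of Gadd45g beside 67.7 and 42.6. Its levels of these 3 genes were near those of the vehicle-treated controls of the drug experiment, whereas the other controls were nearer the untreated knockouts. Gadd45g, at 28.9, 21.6 and 28.0 FPKM in DKO kidneys, was the only gene called, by -1.67 against control (SE 0.35, adjusted p = 0.0295), and without control library 1 the difference was -1.08 with an adjusted p of 0.0812. The call was also lost without control library 2 or any 1 DKO library, with adjusted p from 0.0621 to 0.0717 at differences of -1.79 to -1.55. So 1 of the 10 genes was called lower and 0 higher in DKO, beside 1.56% and 2.33% of the 7689 genes that reached 5 FPKM. Of these genes 4 were lower and 0 higher at an unadjusted p under 0.05, and DESeq2 called 1 lower and 0 higher.

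Slc25a25 was 3.2, 3.64 and 5.9 FPKM in Tsc2 KO kidneys of this experiment and differed from control by -1.75 (SE 0.57, adjusted p = 0.0641), or by -0.69 without control library 1. Jun was 48.8, 34.6 and 33.7 FPKM, above the controls at 27.9, 23.2 and 9.84, and differed by 0.94 (SE 0.32, adjusted p = 0.072). None of the 10 genes was called between Tsc2 KO and control, where 18.2% of the 7736 genes that reached 5 FPKM were called in either direction. At an unadjusted p under 0.05, 1 was higher (Jun) and 2 were lower (Slc25a25 and Gadd45g), and DESeq2 called the same numbers. DKO and Tsc2 KO kidneys gave no call among the 10 either, beside 0.286% of the 7700 genes that reached 5 FPKM. There 3 were lower at an unadjusted p under 0.05 (Jun, Gadd45g and Dusp6) and 0 higher, and DESeq2 called 0. Slc25a25, which was higher in DKO than in Tsc2 KO kidneys in both other experiments, differed by 0.02 (SE 0.56) here. In Tfeb KO kidneys none was called, as with 0% of the 7476 genes that reached 5 FPKM, and 3 were lower at an unadjusted p under 0.05 (Jun, Gadd45g and Fos), none of them with DESeq2.

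**Figure D5:**
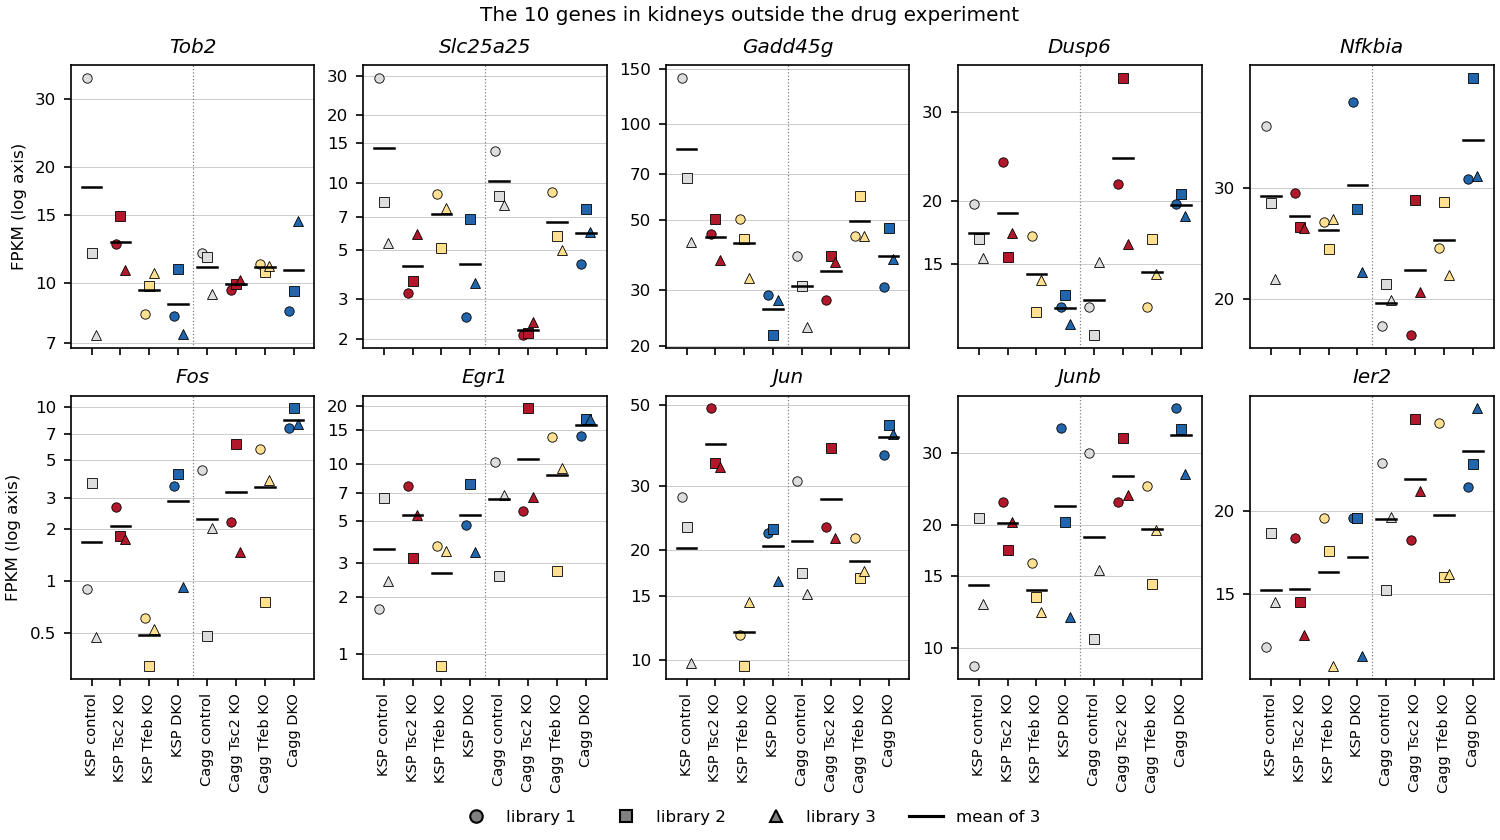
FPKM (log axis) of the 10 genes in untreated KspCre kidneys (left of the dotted line) and untreated CaggCreERT2 kidneys (right). Points are libraries and the bar is the mean of 3. Slc25a25 lies at 2.07 to 2.37 FPKM in CaggCreERT2 Tsc2 KO kidneys, and KspCre control library 1 lies above its group for Slc25a25, Tob2 and Gadd45g.

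Taking all 14 groups in order of mean level, Slc25a25 ran from 2.19 FPKM (SD 0.158, n = 3) in CaggCreERT2 Tsc2 KO and 3.2 (SD 0.336) in vehicle-treated Tsc2 KO kidneys to 27.2 (SD 6.07) in vehicle-treated controls. The 3 Tsc2 KO groups without rapamycin were the 3 lowest, with untreated KspCre Tsc2 KO at 4.24 (SD 1.45) next to the DKO of that experiment at 4.32 (SD 2.27), which it did not differ from beyond its spread. Gadd45g had the highest mean FPKM of the picked genes in every group except untreated KspCre DKO, where Nfkbia was higher, and it ran from 26.2 FPKM (SD 3.97) in untreated KspCre DKO to 147 (SD 3.24) in vehicle-treated controls. Dusp6 ran from 12.2 (SD 0.806) to 31.3 FPKM (SD 3.73) and Nfkbia from 18.2 FPKM (SD 1.28) in rapamycin-treated controls to 35.8 (SD 7.9) in CaggCreERT2 DKO kidneys. All 5 classic genes had their highest mean in rapamycin-treated Tsc2 KO kidneys, with large SDs: Egr1 31.4 FPKM (SD 25.3), Fos 16.8 (SD 13.9), Junb 39.8 (SD 30.3), Ier2 30.9 (SD 19.4) and Jun 53.2 (SD 29.2). Of the 13 steps between neighbouring groups in each order, 0 to 2 exceeded the larger of both SDs. For Gadd45g the only such step was that from vehicle-treated controls down to vehicle-treated DKO, and Slc25a25 had that step and the one from vehicle-treated to CaggCreERT2 Tsc2 KO kidneys. Levels set across experiments were not normalized together.

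Relatives of the 10 genes were read from lists that leave out the members. In control kidneys every gene called by edgeR was a member, so no relative could be called. The median log2 change there was -1.09 for 7 EGR and NR4A genes, -0.30 for 37 other immediate early genes and 0.22 for 10 NF-kappaB genes, beside 0.00 for all genes tested.

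In Tsc2 KO kidneys, where 17.3% of genes reaching 5 FPKM were called lower with rapamycin and 21.2% higher, Gadd45a, the paralogue of Gadd45g, fell by 1.46 on the log2 scale (SE 0.27, adjusted p = 0.000768), 1 of 2 such relatives. Slc25a24, another carrier of the subfamily of Slc25a25, fell by 1.92 (SE 0.40, adjusted p = 0.00193), again 1 of 2. In the BTG/TOB family 2 of 4 were lower, Btg1 at -0.91 (adjusted p = 6.75e-05) and Btg3 at -0.71 (adjusted p = 0.00381). Of 4 NF-kappaB genes reaching 5 FPKM, the subunit genes Rela, at -0.56, and Nfkb2, at -0.61, were lower, with adjusted p of 0.00481 and 0.0407. Of 8 ERK feedback genes, Dusp4, a nuclear ERK phosphatase gene, was lower at -0.65 (adjusted p = 0.0349). Of 5 other MAP kinase phosphatase genes, Dusp9 rose by 3.03 (adjusted p = 1.33e-06), Dusp14 rose by 0.51 (adjusted p = 0.0137) and Dusp8 fell by 2.42 (adjusted p = 2.93e-05). With the 4 adrenal libraries left out, all 10 of these changes kept their direction, and Slc25a24 (-1.57), Btg1 (-0.74), Dusp9 (3.04) and Dusp8 (-2.87) were called, whereas Gadd45a had -1.08 (adjusted p = 0.0908).

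In the same comparison, the AP-1 family gene Atf3, which is induced by stress, was lower at -1.61 (adjusted p = 0.00484) and Mafk at -0.66 (adjusted p = 0.00182), and 0 of that family were called higher. Of 29 other immediate early genes reaching 5 FPKM, 10 were lower and 3 higher. The largest differences were those of Gem, a small GTPase gene, at -2.16 (adjusted p = 0.0172), Socs3, the cytokine feedback inhibitor, at -1.54 (adjusted p = 0.00908), and Cebpb at -1.42 (adjusted p = 0.0151). Klf6 and the kinase gene Plk2 followed, both at -1.34, with adjusted p of 9.78e-06 and 0.000348. Of the 13 calls among other immediate early genes, 5 were made without the adrenal libraries, Klf6 (-1.30) and Plk2 (-1.09) among them, and all 13 kept their direction. In DKO kidneys, where 4.70% of genes were called lower and 2.73% higher, 5 of 25 other immediate early genes were lower and 0 higher: Plk3 at -2.05, Cebpb at -1.66, Rhob at -0.72, Klf6 at -0.66 and Mcl1 at -0.51, with adjusted p from 0.0117 to 0.0446. Dusp14 rose by 0.55 (adjusted p = 0.0335) and Tob1 fell by 0.47 (adjusted p = 0.0342) there. None of these calls in DKO kidneys was made without the adrenal libraries, though all kept their direction.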

How the data were processed

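Kidney RNA was sequenced from poly-A selected, non-directional libraries, so reads of a gene and of an antisense partner cannot be told apart. The authors deposited, for each experiment, a table of read counts per gene and a table of FPKM (counts divided by gene length and library size). The submitters' processing notes name STAR 2.6.1d, HISAT2 2.0.5, featureCounts 1.5.0-p3, DESeq2 1.20.0 and mm10, without saying which aligner made these counts. Each count column was matched to the FPKM column made from it. The names of the pair were the same in both KspCre experiments and differed for 4 of the 12 CaggCreERT2 libraries, where the FPKM names were used.

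Counts were tested with edgeR 4.0.16 in R 4.3.3 (filterByExpr, TMM, quasi-likelihood, all groups of an experiment in 1 fit), with Benjamini-Hochberg adjustment over all genes tested. A call needs an adjusted p of at most 0.05 and a group mean of at least 5 FPKM. Shares of genes called are of those reaching that mean. Replicates are labelled as separate samples, and p-values measure the spread between them. The fits were also run on simulated counts, and the outcome is not given here. DESeq2 1.42.0, RLE scaling, no filter on low counts, the compared groups alone, a replicate block, Xist as a covariate, the count table names and leaving out each library were alternatives. Leaving out the 4 libraries with at least 50 FPKM of adrenal markers was chosen after seeing the data. Genes outside the 10 were named by a rule: at most 5 called genes per list and rapamycin contrast by size of change, and the 5 most correlated with each set mean. Slco1a6, Klf10, Ucp1, Hsd3b1, Star, mt-Rnr1 and mt-Rnr2 were named outside that rule. The members and lists were chosen with earlier results of these data known. One result of the AP-1 list is not reported here.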

Additional observations from a re-analysis of the deposited data

Results flagged for a closer look

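The effect of rapamycin differed between Tsc2 KO and DKO kidneys by 2.49 on the log2 scale for Slc25a25 and by 2.39 for Gadd45g, in a test of that difference itself by edgeR. For the same genes the effect in control kidneys minus that in Tsc2 KO kidneys was -3.46 for Slc25a25 and -3.10 for Gadd45g. These gaps were not tested, and their control side was fixed when the genes were chosen on it.

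Dusp6 in Tsc2 KO against control differed between the vehicle-treated KspCre and the CaggCreERT2 kidneys by -1.51. The KspCre side uses the control libraries on which Dusp6 was picked, and the gap was not tested. The difference of Dusp6 between DKO and control was -0.50 (adjusted p = 0.15) in untreated KspCre and 0.67 (adjusted p = 0.09) in CaggCreERT2 kidneys, neither of them called, a gap of -1.17. Gadd45g in DKO against Tsc2 KO was called at 1.31 with vehicle and stood at -0.75 (adjusted p = 0.396), not called, in untreated KspCre kidneys, a gap of 2.06. Neither gap was tested.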

How the results depend on the processing

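Counts below are of the 10 genes called (of the 5 classic genes for vehicle-treated Tsc2 KO against control). Without the filter on low counts, 5 were higher with rapamycin in Tsc2 KO and 5 lower in DKO kidneys, 1 was lower in DKO against Tsc2 KO under rapamycin, and in untreated KspCre kidneys 1 was higher and 1 lower in Tsc2 KO and 2 lower in DKO against control. In CaggCreERT2 kidneys this setting gave 2 higher in Tsc2 KO and 1 in Tfeb KO against control, 4 higher in DKO against Tsc2 KO, and 6 higher and 1 lower in DKO against control. DESeq2 gave 1 higher and 5 lower with rapamycin in DKO, 2 lower in DKO against Tsc2 KO under rapamycin, 1 higher and 2 lower in untreated KspCre Tsc2 KO, and 4 higher and 1 lower in CaggCreERT2 DKO against control. The compared groups alone gave 0 lower with rapamycin in Tsc2 KO, 2 higher in DKO, 4 classic genes higher in vehicle-treated Tsc2 KO, 0 lower in untreated KspCre DKO, and in CaggCreERT2 DKO 1 higher against Tsc2 KO and 5 against control. Xist as a covariate gave 1 higher in CaggCreERT2 DKO against Tsc2 KO, and the count table names gave 1 there and 0 against control. Without the 4 adrenal libraries, an alternative chosen after seeing the data, 1 gene was higher and 0 lower in Tsc2 KO, 1 lower in DKO, 0 higher and 1 lower in the mean effect and 0 classic genes higher in vehicle-treated Tsc2 KO, and Dusp6 in Tsc2 KO turned to 0.10. The cause of these shifts was not tested.

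With 1 library left out, 2 to 5 genes were higher and 0 to 1 lower with rapamycin in Tsc2 KO, 2 to 4 lower in DKO, and 3 to 4 higher and 1 to 4 lower in the mean effect. Classic genes higher in vehicle-treated Tsc2 KO numbered 0 to 2. In untreated KspCre kidneys 0 to 1 was higher and 0 to 2 lower in Tsc2 KO, and 0 to 1 lower in DKO. In CaggCreERT2 kidneys 1 to 3 were higher in Tsc2 KO and 1 to 2 in DKO against either group. Among the rapamycin effects in control, Tsc2 KO and DKO kidneys and their mean over both knockouts, the changes that turned direction, none of them called, ranged in control from -0.71 to 0.43 for Jun, -0.29 to 1.72 for Egr1 and -0.72 to 1.66 for Fos, in Tsc2 KO from -0.12 to 0.07 for Tob2 and -0.19 to 0.11 for Dusp6, and for Jun from -0.50 to 0.13 in DKO and -0.05 to 0.32 in the mean effect. Differences that were not called in the other comparisons also turned in places and are not listed. The 2 calls for the difference between Tsc2 KO and DKO were made under every alternative run.

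The replicate numbers did not pair the libraries: same-numbered libraries of the drug experiment deviated together with r of -0.36 to 0.36, and 7 of 18 correlated best with their own number. With the replicate block, Egr1 in Tsc2 KO kidneys lost its call (2.03, adjusted p = 0.0654), and Jun turned to -0.03 in control and -0.02 in the mean effect. Over all genes, rapamycin in control gave 0 higher and 5 lower, but 0 and 2 with the block, 2 and 12 without the filter, 1 and 3 with the compared groups alone and 16 and 33 with DESeq2. DESeq2 also called more genes in DKO with rapamycin (376 and 557, against 211 and 363), in DKO against Tsc2 KO under rapamycin (53 and 100, against 9 and 21), in untreated KspCre DKO against Tsc2 KO (172 and 137, against 9 and 13) and against control (412 and 332, against 179 and 120), and in CaggCreERT2 Tfeb KO (23 and 31, against 1 and 1).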

Other observations

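Other inducible gene groups were read in the same libraries, where 21.2% of genes reaching 5 FPKM were called higher and 17.3% lower with rapamycin in Tsc2 KO kidneys by edgeR. Of 13 clock and glucocorticoid-responsive genes at that level, 4 were higher and 1 lower. The PAR-bZIP transcription factor genes Hlf and Tef rose by 1.76 (adjusted p = 0.00015) and 1.24 (adjusted p = 0.0241) on the log2 scale, and the clock repressor genes Nr1d2 and Nr1d1 by 0.92 (adjusted p = 0.0344) and 0.70 (adjusted p = 0.03). Bhlhe41, another repressor of the clock, fell by 2.57 (adjusted p = 0.000453). Without the 4 adrenal libraries Hlf (1.42) and Bhlhe41 (-2.64) were called and the other 3 were not.

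Of 11 heat shock genes, 4 were higher and 2 lower in the same comparison. The chaperone genes Hsph1, Hspa8, Hspd1 and Dnaja1 had changes of 1.22, 0.88, 0.61 and 0.49, with adjusted p from 0.00201 to 0.0399. The small heat shock protein gene Hspb1 fell by 2.01 (adjusted p = 0.000597) and Bag3 by 0.62 (adjusted p = 0.0256). Without the adrenal libraries 3 of these 6 were called, Hspa8 (0.98), Hspd1 (0.67) and Hspb1 (-1.89). In DKO kidneys Hspe1 alone was called, at -0.62 (adjusted p = 0.0229), and not without those libraries.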
